A study of Mus musculus with 2 samples.

Results

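The transcripts of 10 enzymes of glycolysis were followed in microglia (brain-resident macrophages) of the hypothalamus, through the pathway from the phosphorylation of glucose to the formation of lactate. The genes were listed by name as Hk2, Gpi1, Aldoa, Tpi1, Gapdh, Pgk1, Pgam1, Eno1, Pkm and Ldha, and all 10 were among the 31053 features counted. The microglia came from young wild-type mice, several of which were pooled, and were sorted 20 hours after the mice had received plasma protein carrying a dye. The sort gave a plasma-negative library of cells without the dye and a plasma-positive library of cells with it, 1 library per group, so the mice, the sort and the library preparation cannot be told apart from the plasma label. Both groups had the same genotype and injection, and the 2 libraries of single-cell RNA were made with a droplet method that counts each captured molecule once by a unique molecular identifier (UMI).

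After filtering, the plasma-negative library held 9860 cells with 34534518 UMIs (median 3270.5 per cell) and the plasma-positive library 10362 cells with 41984977 UMIs (median 3753 per cell). The 11 microglia markers together made up 47816 and 46572 counts per 1000000 UMIs (CPM), with none at 0, whereas the 5 neutrophil markers were all at 0 in both libraries. Apoe, which encodes apolipoprotein E, was at 171 CPM in the plasma-negative and 1190 CPM in the plasma-positive library. Cells with at least 5 Apoe UMIs, called Apoe-high here, numbered 316 in the plasma-negative library (3.20%, exact 95% interval 2.87 to 3.57%) and 1012 in the plasma-positive one (9.77%, 9.20 to 10.4%). They were set against the 8349 and 6736 Apoe-free cells of the same library, in which no Apoe UMI was found. With 1 library per group no test was possible. Every interval below is thus a 95% interval of counting error alone and leaves out differences between cells, mice, sorts and preparations.

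Glycolysis splits glucose into pyruvate in the cytosol and yields ATP and NADH without oxygen. Hexokinase traps glucose in the cell, and the isomerases and aldolase take part in turning it into triose phosphates. The step that forms the fructose bisphosphate split by aldolase has no gene among the 10 members. Glyceraldehyde phosphate dehydrogenase forms NADH, the kinases after it form ATP, and lactate dehydrogenase returns NADH to NAD. Macrophages and microglia are known to raise glycolysis when activated. The transcription factor HIF1 is a well-known activator of most of these genes through the hypoxia response element. ACGTG is a common form of the core motif of that element, but not its only form.

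All 10 are protein-coding genes in GENCODE M21 on the mouse build GRCm38, which need not be the build the authors used. Hk2 (ENSMUSG00000000628), for hexokinase 2, which phosphorylates glucose, lies at chr6:82725025-82774454, minus strand. Gpi1 (ENSMUSG00000036427), for glucose phosphate isomerase, lies at chr7:34201330-34230336, minus strand. Aldoa (ENSMUSG00000030695), for aldolase A, which splits fructose bisphosphate, lies at chr7:126795234-126800751, minus strand. Tpi1 (ENSMUSG00000023456), for triose phosphate isomerase, lies at chr6:124810586-124814296, minus strand. Gapdh (ENSMUSG00000057666), for glyceraldehyde phosphate dehydrogenase, lies at chr6:125161715-125166467, minus strand. Pgk1 (ENSMUSG00000062070), for phosphoglycerate kinase, the earlier of the ATP-forming steps, lies at chrX:106187100-106203699, plus strand. Pgam1 (ENSMUSG00000011752), for phosphoglycerate mutase, lies at chr19:41911923-41918660, plus strand. Eno1 (ENSMUSG00000063524), for enolase, lies at chr4:150236721-150248879, plus strand. Pkm (ENSMUSG00000032294), for pyruvate kinase, the later ATP-forming step, lies at chr9:59656368-59679375, plus strand. Ldha (ENSMUSG00000063229), for lactate dehydrogenase A, lies at chr7:46841475-46855627, plus strand. Hk2 has the longest span, 49430 bases from start to end of the gene. Pseudogenes named after a member in that annotation numbered 2 for Aldoa, 3 for Pgk1 and 2 each for Gapdh, Pgam1 and Ldha, and none of them was among the features counted, so the counts of these 5 genes are uncertain as far as reads are shared with such copies. Copies under other names were not searched for, so the other 5 genes may be uncertain in the same way. A second identifier with the symbol Aldoa held 0 and 1 UMIs and was not used.

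The upstream sequences of 4 members are shown because these genes lie at the ends of the order described further on, Pgk1 and Pkm with the highest depth-weighted ratio between Apoe-high and Apoe-free cells, taken as the mean of the 2 libraries, and Hk2 and Eno1 with the lowest. In the plasma-positive library alone the order differs, with Gpi1 above Pkm and with Eno1, Pgam1 and Ldha below Hk2. The sequences are from RefSeq (GRCm38.p6), the 250 bases before the most upstream listed start, 5′ to 3′ on the strand of the gene, with matches to ACGTG on either strand in capitals. For Pkm only the first 42 of these bases are printed, since the rest overlaps an exon in GENCODE M21.
Pgk1 at chrX:106186850-106187099: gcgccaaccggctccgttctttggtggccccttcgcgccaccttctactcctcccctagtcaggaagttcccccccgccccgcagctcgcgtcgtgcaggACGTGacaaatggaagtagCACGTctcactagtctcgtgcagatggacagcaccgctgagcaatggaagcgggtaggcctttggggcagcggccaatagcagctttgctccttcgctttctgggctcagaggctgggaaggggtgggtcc
Pkm at chr9:59656326-59656367: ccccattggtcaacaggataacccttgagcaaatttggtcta
Hk2 at chr6:82774455-82774704: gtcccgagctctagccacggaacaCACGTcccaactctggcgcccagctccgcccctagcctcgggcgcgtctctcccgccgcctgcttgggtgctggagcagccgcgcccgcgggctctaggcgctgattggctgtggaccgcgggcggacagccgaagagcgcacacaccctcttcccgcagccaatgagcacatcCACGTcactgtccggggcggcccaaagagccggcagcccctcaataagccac
Eno1 at chr4:150236458-150236707: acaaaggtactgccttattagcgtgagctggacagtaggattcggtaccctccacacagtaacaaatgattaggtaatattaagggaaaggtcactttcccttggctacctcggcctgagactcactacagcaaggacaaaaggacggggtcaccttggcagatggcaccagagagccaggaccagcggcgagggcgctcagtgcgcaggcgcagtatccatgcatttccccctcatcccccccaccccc
The Pgk1 window holds 2 matches, which begin 150 bases (strand of the gene) and 131 bases (opposite strand) before the start. Hk2 also has 2, both on the opposite strand, at 226 and 52 bases before the start. Neither the whole Pkm window nor the Eno1 window contains the motif, so among these 4 genes 1 at each end of the order has it and 1 does not. Of all 10 members 4 hold it (Hk2, Pgk1, Pgam1 and Ldha), against 16.5% of the 27025 mouse promoter windows of the same length. These windows are unlike in base composition. G and C made up 69.6, 62.8, 64 and 67.2% of the windows of these 4 genes and 50.4 to 66.4% of the other members' windows. The median over all windows was 52%, and the part of base composition in the 2 shares was not tested. In Ldha 2 pairs of its 5 matches overlap as the palindrome CACGTG. Only ACGTG was searched for, so a window without it can hold another form of the core motif. These are letter matches in 250 bases and do not show binding, nor does a window without them show its absence.

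The members' levels were nearly the same in the 2 libraries. Together they made up 0.175% of UMIs in the plasma-negative library (1745 CPM, 60264 UMIs) and 0.176% in the plasma-positive library (1765 CPM, 74095 UMIs), a log2 ratio of plasma-positive over plasma-negative of 0.016 (0.00 to 0.03), which was -0.011 when each cell was thinned to 1000 UMIs. A gene was counted as higher or lower where its log2 ratio lay at least 0.32 from 0 in either direction, its interval excluded 0 and its level reached 10 CPM in at least 1 of the groups. By this rule of size 0 of the 10 members differed, where 1.8% of all 8355 genes compared did. The members' median log2 ratio was 0.02, and that of all genes was -0.04. A ratio above 0 was found for 6 of 10 members and for 35.7% of all genes.

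At the entry of the pathway, Hk2 stood at 510 CPM in the plasma-negative and 480 CPM in the plasma-positive library (log2 ratio -0.09, -0.12 to -0.06). Gpi1 was at 67.1 and 74.4 CPM, which was the member with the highest ratio (0.15, 0.07 to 0.23). The level of Aldoa was 183 CPM in both libraries, and that of Tpi1 60.5 and 59.8 CPM. Their ratios of -0.00 and -0.02 had intervals that included 0. In the lower part of the pathway, the NADH-forming Gapdh was at 460 and 488 CPM (0.09, 0.06 to 0.12) and Pgk1 at 39.7 and 40.6 CPM (0.03, -0.07 to 0.14). Pgam1 was at 82.9 and 81.0 CPM and Eno1 at 144 and 145 CPM. Both ratios, -0.03 and 0.01, had intervals including 0, whereas those of the last enzymes were slightly above it. Pkm was at 96.7 and 104 CPM (0.11, 0.04 to 0.17), and Ldha at 101 and 109 CPM (0.10, 0.04 to 0.17).

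**Figure D1:**
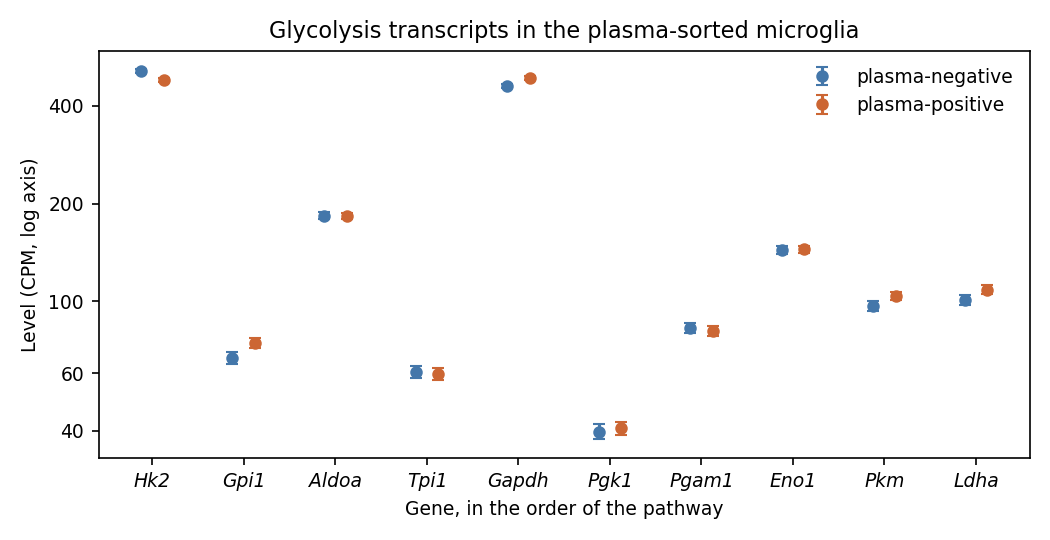
Level of each member (CPM, log axis) in the plasma-negative and the plasma-positive library, in the order of the pathway, with 95% counting intervals. The points of the libraries lie close together for every gene, from Pgk1 near 40 CPM to Hk2 and Gapdh between 460 and 510 CPM.

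Molecules were counted near the 3′ end, 1 UMI per captured molecule, and these levels were not divided by length. Whether reads from introns were counted is not given, and their part in the order of the members was not tested. In the plasma-negative library Hk2 ranked above Gapdh, followed by Aldoa, Eno1, Ldha, Pkm, Pgam1, Gpi1, Tpi1 and Pgk1. The plasma-positive library had the same order except that Gapdh was above Hk2, with overlapping intervals (482 to 495 and 473 to 487 CPM). Ldha and Pkm also had overlapping intervals in both libraries, and no other neighbours did. Hk2 and Gapdh alone gave 29.2% and 26.3% of the members' UMIs in the plasma-negative library, and 27.2% and 27.7% in the plasma-positive library.

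Single cells held few molecules of each gene. At least 1 Hk2 UMI was present in 76.6% and 78.3% of the cells, and at least 1 Pgk1 UMI in 11.8% and 14.1%. When each cell was thinned to 1000 UMIs, which left out 796 and 603 shallower cells, the shares were 39.96% and 37.1% for Hk2 and 3.71% and 3.80% for Pgk1. No cell type that should lack these genes was available to set a background of free RNA beside these shares. The variance over cells divided by the mean is 1 for pure counting. For the members it lay between 0.996 and 1.11 in the thinned plasma-negative cells and between 1.00 and 1.13 in the plasma-positive cells. Gapdh was highest in both. For the members' sum the value was 1.83 in Apoe-high against 1.13 in Apoe-free plasma-negative cells, and 1.31 against 1.13 in plasma-positive cells. The counting intervals leave out this spread between cells, so those of the Apoe-high ratios are too narrow for it. Across thinned cells the 45 pairs of members were hardly correlated (median Pearson r 0.018 and 0.006). The highest pair was Gapdh and Eno1, with r of 0.041 and 0.055, and Hk2 was negatively related to the sum of the other 9 (-0.029 and -0.020). Gpi1 against its other 9 was at 0.036 and -0.024, so in the plasma-positive library it lay below Hk2. Such values in sparse counts from the same libraries describe the cells and carry no test.

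Among the 1662 other genes at 100 CPM or more in both libraries, those most alike to the members' summed UMIs over thinned cells were Actb, C1qb, Tmsb4x, Fth1, Ppia, Tyrobp, Ftl1, Ubb, Cd9 and Cst3. Their correlations were weak, from 0.0504 for Cst3 in the plasma-positive cells to 0.104 for Ftl1 in the same library. The lowest was that of Malat1, a long noncoding RNA kept in the nucleus, at -0.10 and -0.12.

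By the rule of size most members were higher in Apoe-high than in Apoe-free cells of the plasma-negative library, and 1 member was in the plasma-positive library. There Gpi1, Aldoa, Tpi1, Gapdh and Pkm had smaller ratios with intervals above 0. In the plasma-negative library the members' sum was 2101 CPM in the 316 Apoe-high cells and 1715 CPM in the Apoe-free cells (log2 ratio 0.29, 0.24 to 0.34). In the plasma-positive library it was 1883 and 1746 CPM (0.11, 0.08 to 0.14). By the rule of size 7 members were higher and 0 lower in the plasma-negative library, where 3.4% of all 8463 genes compared were higher (4.54% of those at 50 CPM or more). The plasma-positive library had 1 member higher and 0 lower, Pgk1, where 4.69% of 8392 genes were higher (5.95% at 50 CPM or more), so the count there was near the background. The members' median log2 ratio was 0.41 and 0.21, against -0.10 and -0.16 for all genes. Of the members 9 and 8 had a ratio above 0, which 34.6% and 22.2% of all genes had. Over the alternative settings the members above 0 numbered 8 or 9 and 6 to 9. Whether the 2 libraries differ in this respect was not tested.

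Hk2 was the 1 member below 0 in the plasma-negative library and, with Eno1 at -0.00, 1 of 2 in the plasma-positive library. Its level was 477 CPM in Apoe-high and 512 CPM in Apoe-free plasma-negative cells (log2 ratio -0.10, -0.21 to 0.01), and 464 and 488 CPM in plasma-positive cells (-0.07, -0.13 to -0.01). The plasma-negative interval included 0, and the plasma-positive ratio was 0.00 once depth was weighted, as described below. Without Hk2 the sum of the other 9 was 1624 against 1203 CPM in the plasma-negative library (0.43, 0.37 to 0.49) and 1419 against 1259 CPM in the plasma-positive library (0.17, 0.14 to 0.21).

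In the upper part of the pathway, Gpi1 was at 86.6 CPM in Apoe-high and 64.8 CPM in Apoe-free plasma-negative cells (0.42, 0.15 to 0.67). Among cells with at most 1 interferon-response UMI its plasma-negative ratio was 0.008, which no longer passed. In the plasma-positive library it was at 87.8 and 71.4 CPM (0.30, 0.15 to 0.45), just short of the limit of 0.32. Aldoa was at 235 against 179 CPM in plasma-negative cells (0.40, 0.24 to 0.55) and at 209 against 179 CPM in plasma-positive cells (0.23, 0.13 to 0.32). Aldoa thus had the same Apoe-free level in both libraries, and Gpi1 nearly the same Apoe-high level. The triose phosphate isomerase Tpi1 was at 91.9 against 59.0 CPM (0.64, 0.38 to 0.89) and 69.2 against 56.8 CPM (0.29, 0.12 to 0.45).

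In the lower part, the 2 ATP-forming kinases had the highest ratios of the plasma-negative library. Pgk1 was at 65.6 CPM in Apoe-high and 38.4 CPM in Apoe-free cells (0.77, 0.46 to 1.07), from 100 UMIs in the Apoe-high cells. Among cells with at most 1 interferon-response UMI its ratio was 0.30 and no longer passed, and neither did that of Pgam1 (0.28), while Aldoa, Tpi1, Gapdh and Pkm still did. In all cells Pgk1 was also the member with the highest ratio in the plasma-positive library, at 50.2 and 37.5 CPM (0.42, 0.22 to 0.62). Among plasma-positive cells with at most 1 interferon-response UMI its ratio was 0.23, short of the limit. Pkm was at 148 against 93.0 CPM (0.67, 0.47 to 0.87) and 122 against 102 CPM (0.26, 0.13 to 0.38). Gapdh, with the most molecules of the 9, was at 605 against 447 CPM (0.44, 0.34 to 0.53) and 546 against 480 CPM (0.19, 0.13 to 0.24). Its intervals excluded 0 in both libraries, but it was past the limit only in the plasma-negative cells.

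Pgam1, Eno1 and Ldha had ratios near 0 in the plasma-positive library. Pgam1 was at 102 against 80.4 CPM in plasma-negative cells (0.35, 0.10 to 0.58) and at 82.1 against 80.8 CPM in plasma-positive cells (0.02, -0.13 to 0.17). Eno1 was at 167 against 142 CPM (0.24, 0.05 to 0.42) and 143 against 144 CPM (-0.00, -0.12 to 0.11). Ldha was at 122 against 99.7 CPM (0.29, 0.07 to 0.51) and 110 against 108 CPM (0.03, -0.10 to 0.16). Its plasma-negative ratio was -0.08 among cells with at most 1 interferon-response UMI. For these 3 genes the plasma-positive intervals included 0, and Eno1 and Ldha stayed short of the limit in the plasma-negative library too.

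**Figure D2:**
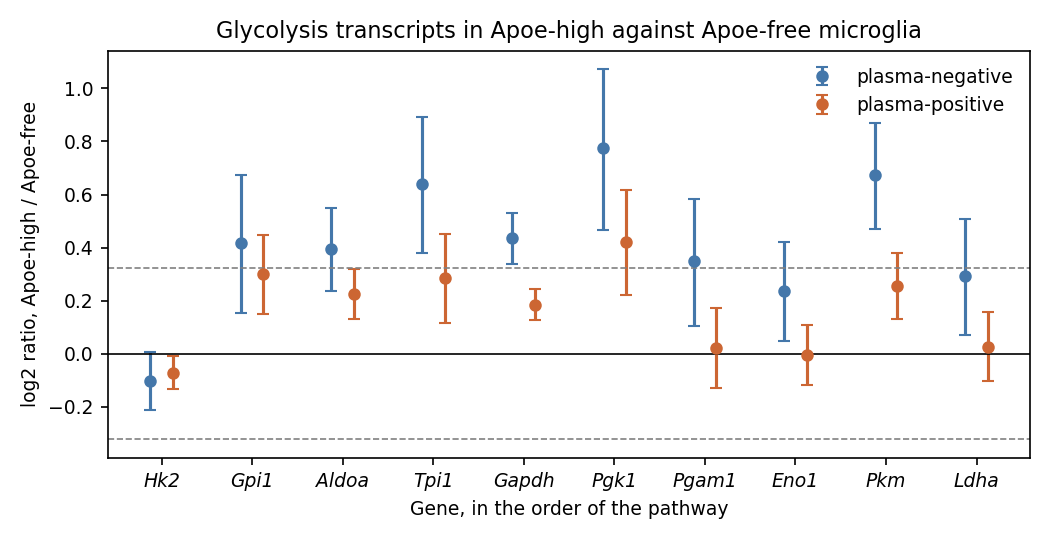
Log2 ratio of the level in Apoe-high over Apoe-free cells for each member in the order of the pathway, by library, with 95% counting intervals and the limits of the rule of size dashed. In the plasma-negative library 7 members lie above the upper limit, in the plasma-positive library only Pgk1, and Hk2 lies slightly below 0 in both, a side it leaves in the plasma-positive library once depth is weighted (0.00).

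Graded by Apoe, the sum of the 9 members without Hk2 was higher at higher Apoe in the plasma-negative cells. It was 1203 CPM in cells with 0 Apoe UMIs, 1273 at 1 to 2, 1376 at 3 to 4, 1585 at 5 to 9, 1663 at 10 to 19 and 1694 at 20 or more, the last from 42 cells. In the plasma-positive cells the same steps gave 1259, 1264, 1351, 1423, 1459 and 1400 CPM. The plasma-positive values thus stood highest at 10 to 19 UMIs, and the interval there (1390 to 1530 CPM) overlapped those of its neighbours. This sum leaves out Hk2, the member below 0 in both libraries. With Hk2 included, the sum of all 10 was 1715, 1782, 1887, 2051, 2156 and 2175 CPM over the plasma-negative steps. Over the plasma-positive steps it was 1746, 1732, 1837, 1905, 1911 and 1859 CPM, lower at 1 to 2 than at 0 Apoe UMIs. Hk2 lay between 467 and 512 CPM over the 6 steps of the plasma-negative cells and between 452 and 488 CPM in the plasma-positive cells, and the intervals of all steps in a library overlapped that of its Apoe-free cells. On either side of the limit, the 211 and 409 cells with 3 or 4 Apoe UMIs had members' sums of 0.189% and 0.184% of UMIs, and the 94 and 180 cells with 5 or 6 had 0.211% and 0.188%.

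**Figure D3:**
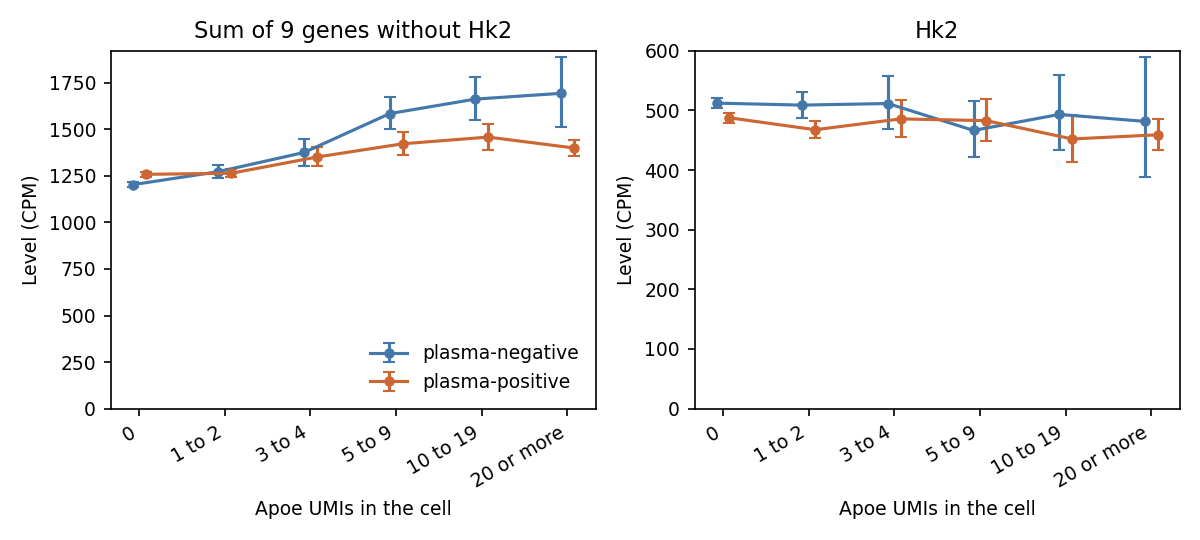
Summed level of the 9 members without Hk2 (left) and level of Hk2 (right), in CPM, by the number of Apoe UMIs in the cell and by library, with 95% counting intervals. The sum runs from 1203 to 1694 CPM in the plasma-negative and from 1259 to 1459 CPM in the plasma-positive library, while Hk2 stays between 452 and 512 CPM.

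Apoe-high cells also differed from Apoe-free cells in depth and RNA makeup. Their median depth was 4203 against 3199 UMIs in the plasma-negative and 4551 against 3564.5 UMIs in the plasma-positive library. When the Apoe-free cells were weighted to the depths of the Apoe-high cells over 10 bins, the summed log2 ratio was 0.29 and 0.099, against 0.29 and 0.11 without the weights. Pgk1 remained the highest at 0.74 and 0.38 and Hk2 was at -0.01 and 0.00. In the plasma-positive library Pgam1 (-0.039), Eno1 (-0.043) and Ldha (-0.033) then lay below 0 with intervals including it, so 7 members were above 0 in place of 8. The median share of mitochondrially encoded RNA was 1.45% against 1.05% and 1.68% against 1.21%, and with bins of that share the summed ratio was 0.29 and 0.098. Ribosomal protein genes made up 11.2% against 8.80% and 13.1% against 9.47% of UMIs. Leaving them and the mitochondrial genes out of the total brought the plasma-positive ratio to 0.18 and its count of higher members from 1 to 4.

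Malat1 was at a median of 5.35% of UMIs in Apoe-high against 6.77% in Apoe-free plasma-negative cells, and at 4.55% against 5.55% in plasma-positive cells. Within bins of the Malat1 share the summed ratio was 0.23 and 0.047, with 4 and 0 members higher. The plasma-positive ratio of Gapdh within these bins was 0.03, and that of the plasma-negative library 0.28.

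Thinning all cells to 1000 UMIs left few molecules of the rarer members. The summed ratio was then 0.28 and 0.092, with 3 and 1 members higher. The 1 plasma-positive member was Pkm (0.35, 0.06 to 0.63), while Pgk1 (0.42, -0.07 to 0.88) had an interval including 0. Tpi1 (0.95, from 35 UMIs), Gapdh (0.54) and Aldoa (0.40) passed the rule in the plasma-negative library, Gpi1 (0.36, -0.25 to 0.92) did not because its interval included 0, and Pgk1 turned to -0.10 with an interval from -1.12 to 0.76, from 11 UMIs in 314 Apoe-high cells. Pgk1 was thus not the member with the highest plasma-negative ratio in every setting. With means over unthinned cells Tpi1 was at 0.72 and Pgk1 at 0.69. Tpi1 also lay above Pgk1 among cells with at most 1 interferon-response UMI. In the plasma-positive library Tpi1 was at -0.07 and Pgam1 at -0.13 after thinning, with intervals including 0. The Pgk1 ratio of the plasma-negative library without the deepest cells, those that an expected doublet rate would take out, was 0.42. Tpi1 (0.53) and Gpi1 (0.45) were then above it.

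Markers of border-associated macrophages, which can express Apoe, summed to 4.59 against 3.62 CPM in Apoe-high and Apoe-free plasma-negative cells and to 25.7 against 3.20 CPM in plasma-positive cells, with 4, 3, 1 and 3 of the 7 markers at 0. Without cells holding 2 or more UMIs of these markers the summed ratio was 0.29 and 0.11, as large as with them. Microglia markers summed to 46988 against 47734 CPM and 44802 against 46882 CPM. Levels per cell group count RNA only, so more transcript per cell and a smaller amount of other RNA cannot be told apart.

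The other genes of sugar use were taken from a list of 68, of which 37 reached 10 CPM in at least 1 group of each comparison. Between the libraries 0 of these 37 passed the rule of size. In Apoe-high plasma-negative cells 1 was higher and 2 were lower, and in plasma-positive cells 0 were higher and 4 lower, where 7.72% and 17.2% of all genes were lower. The list's median log2 ratio was -0.01 and -0.09, so it lay close to that of all genes and below that of the members.

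Slc2a5, the transporter GLUT5, which carries fructose and marks microglia in the brain, was lower in the Apoe-high cells of both libraries. It was at 220 CPM in Apoe-high and 314 CPM in Apoe-free plasma-negative cells (-0.51, -0.68 to -0.36) and at 210 and 343 CPM in plasma-positive cells (-0.71, -0.80 to -0.62). By Apoe step it stood at 314, 289, 282, 221, 239 and 166 CPM in the plasma-negative cells and at 343, 319, 286, 248, 224 and 184 CPM in the plasma-positive cells. Each plasma-positive step was thus below the one before. After weighting to equal depth its ratios were -0.56 and -0.72. The lactate carrier Slc16a7 was at 34.8 against 45.2 CPM (-0.38, -0.80 to 0.02) and 32.6 against 46.5 CPM (-0.51, -0.75 to -0.28). The glucose transporter Slc2a1 was at 21.7 against 21.6 CPM and 17.5 against 20.3 CPM, and the lactate exporter Slc16a3 at 36.8 against 33.1 CPM and 28.1 against 30.7 CPM. Neither passed the rule of size in any comparison.

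Pdk1, the kinase that holds pyruvate dehydrogenase inactive, was at 74.2 against 105 CPM in plasma-negative cells (-0.50, -0.78 to -0.23) and at 70.7 against 93.3 CPM in plasma-positive cells (-0.40, -0.56 to -0.24). The mitochondrial pyruvate carrier genes were near equal, with Mpc1 at 285 against 270 CPM and 256 against 284 CPM and Mpc2 at 102 against 105 CPM and 110 against 108 CPM. Pdhb, of the pyruvate dehydrogenase core, was at 59.7 against 57.6 CPM and 54.7 against 56.4 CPM. Of the 12 genes for the entry of pyruvate into mitochondria, 8 were measured and Pdk1 was the 1 past the limit in each library.

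Of 18 other isoenzymes 5 reached 10 CPM. Ldhb, the lactate dehydrogenase subunit of oxidative tissues, was at 422 against 313 CPM in plasma-negative cells (0.43, 0.31 to 0.55) and at 406 against 378 CPM in plasma-positive cells (0.10, 0.03 to 0.17), and its level in each library as a whole, 325 and 382 CPM, was above that of Ldha. The other hexokinases were much lower than Hk2, with Hk1 at 17.7 and 17.2 CPM and Hk3 at 31.4 and 30.2 CPM in the plasma-negative and plasma-positive libraries. Among genes of the regulatory fructose bisphosphate and the reverse steps, Pfkfb3 was at 58.4 against 69.8 CPM and 83.5 against 75.9 CPM, Pfkfb4 at 49.9 against 50.2 CPM and 42.2 against 44.9 CPM, and Pck2 at 57.8 against 51.0 CPM and 45.2 against 44.8 CPM. None of the 3 measured passed the rule.

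All 7 genes of the pentose phosphate pathway were measured, and 0 passed the rule in either library. The most abundant was Taldo1, transaldolase, at 173 against 154 CPM and 192 against 172 CPM, with a ratio of 0.16 in both. Pgls was at 119 against 112 CPM and 129 against 117 CPM, Tkt at 93.9 against 90.9 CPM and 93.4 against 100.1 CPM, and Pgd at 73.5 against 67.9 CPM and 71.3 against 69.3 CPM. Of 14 genes of the hypoxia response 8 were measured. Hif1a was at 133 against 125 CPM and 146 against 136 CPM (0.09 and 0.11), and P4ha1, a collagen prolyl hydroxylase, at 256 against 280 CPM and 227 against 257 CPM. Ddit4, a stress-induced inhibitor of mTORC1 signalling, was at 18.4 against 22.4 CPM in plasma-negative cells and 14.5 against 21.1 CPM in plasma-positive cells (-0.54, -0.90 to -0.20), and was the 1 gene of this group past the limit.

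**Figure D4:**
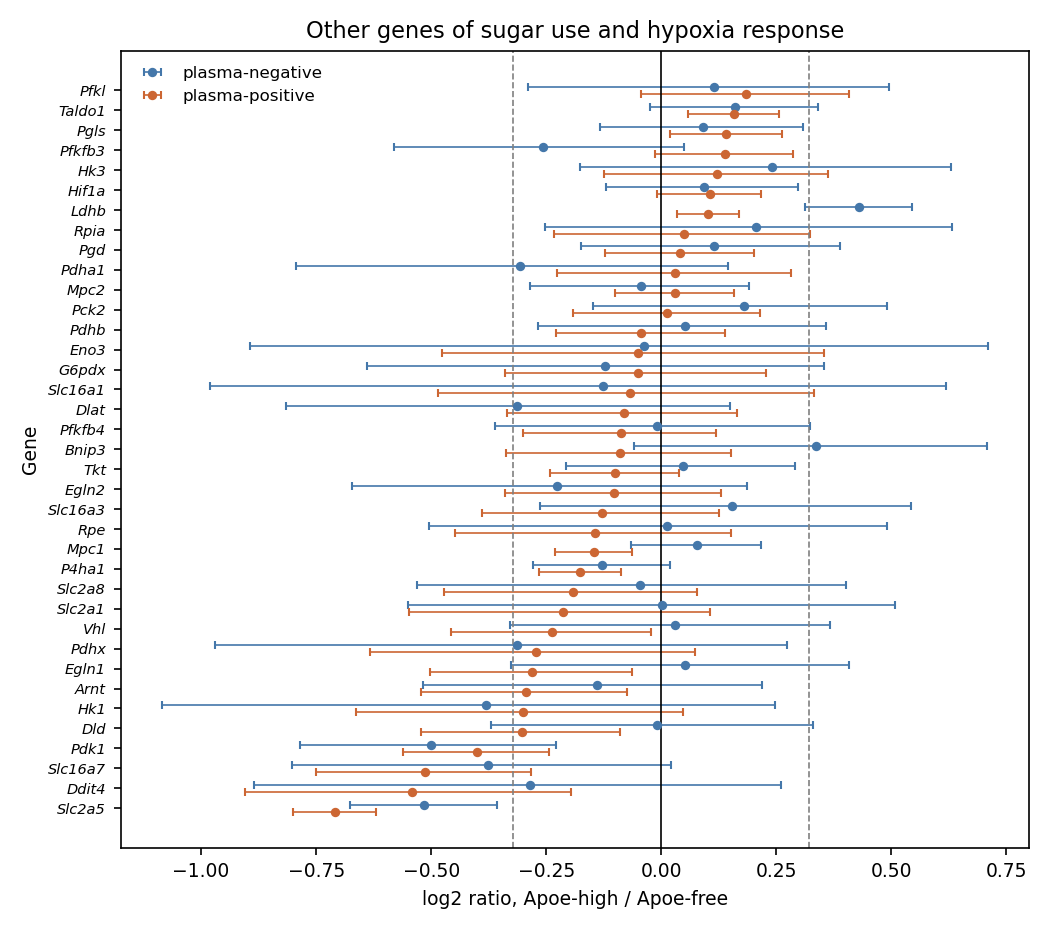
Log2 ratio of Apoe-high over Apoe-free cells for the 37 measured genes of the sugar use and hypoxia list, by library, with 95% counting intervals and the limits of the rule of size dashed, ordered by the plasma-positive ratio. Slc2a5 and Pdk1 lie below the lower limit in both libraries, and Ldhb lies above the upper limit in the plasma-negative library.

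Hk2 also stood apart from the other members in the shallow and Malat1-rich cells. The cells of each library were ordered by Malat1 share and divided into 10 bins of equal cell number. In the lowest and the highest bin Hk2 was at 452 and 1114 CPM in the plasma-negative library (1.30, 1.19 to 1.41) and at 397 and 824 CPM in the plasma-positive library (1.06, 0.94 to 1.17). Gapdh went the other way, at 686 and 126 CPM (-2.45, -2.72 to -2.18) and at 796 and 209 CPM (-1.93, -2.11 to -1.76). All of the 9 members other than Hk2 were lower in the highest Malat1 bin of each library, with ratios from -0.94 to -2.45 and from -0.82 to -1.93. Such differences were frequent, as 38.4% and 42.6% of all genes passed the rule as higher and 21.1% and 20.4% as lower there. The highest Malat1 bin had median depths of 874 and 1003.5 UMIs, against 2974.5 and 3256 in the lowest, so depth and Malat1 share cannot be told apart in it.

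In the shallowest of 10 bins by depth, Hk2 was higher and 9 and 7 of the 9 other members were lower than in the remaining cells. Gpi1 (-0.37, -0.77 to 0.00) and Pkm (-0.29, -0.62 to 0.01) of the plasma-positive library did not pass the rule. Hk2 was at 1218 CPM there and 494 CPM in the other plasma-negative cells, and at 932 and 469 CPM in the plasma-positive library. The 9 other members summed to 533 against 1251 CPM (-1.23, -1.37 to -1.09) and to 783 against 1297 CPM (-0.73, -0.83 to -0.63). The sum of all 10 was 1752 against 1745 CPM and 1715 against 1766 CPM. Pdk1 resembled Hk2 in this, at 210 against 101 CPM and 134 against 86.7 CPM. In the shallowest bin 32.5% and 33.1% of all genes were higher and 19.7% and 18.8% lower.

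**Figure D5:**
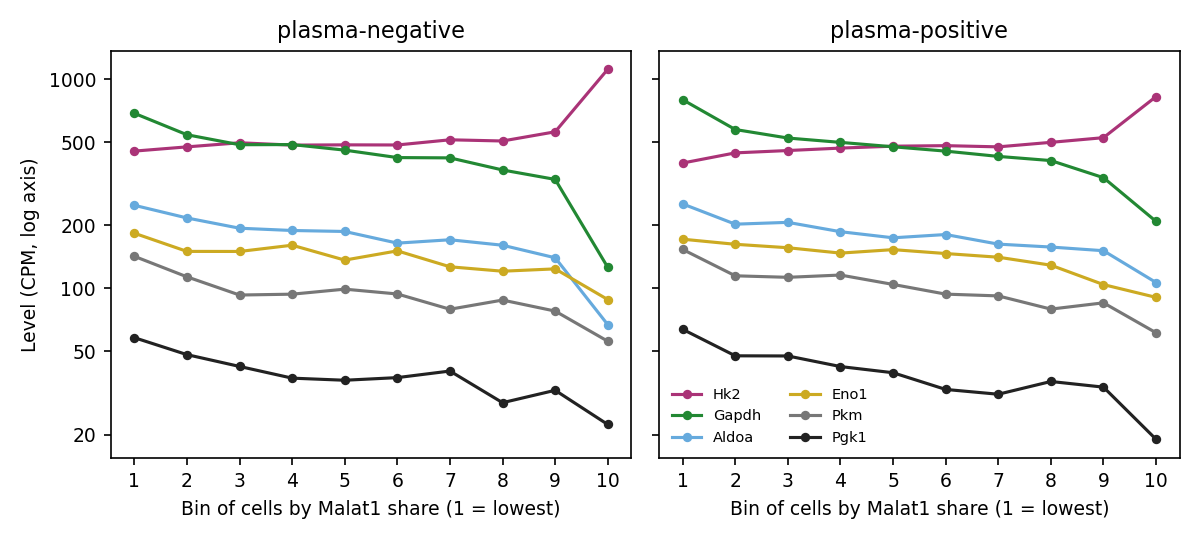
Level (CPM, log axis) of 6 members over 10 equal bins of cells ordered by their Malat1 share, in the plasma-negative (left) and plasma-positive (right) library. Hk2 is highest in the last bin, at 1114 and 824 CPM, where Gapdh, Aldoa, Eno1, Pkm and Pgk1 are lowest.

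Cells with a UMI of the proliferation genes Mki67 or Top2a, 33 plasma-negative and 96 plasma-positive cells, had more Gapdh, Pgk1, Eno1 and Pkm and less Hk2 in both libraries. Gapdh was at 941 against 457 CPM in the cells without them (1.04, 0.81 to 1.27) in the plasma-negative library and at 924 against 483 CPM (0.94, 0.81 to 1.07) in the plasma-positive library. Pgk1 was at 81.9 against 39.5 CPM (1.05, 0.18 to 1.80, from 14 UMIs) and 98.5 against 39.9 CPM (1.31, 0.88 to 1.70). In the plasma-negative library Eno1 (0.55, 0.04 to 1.03) and Pkm (0.76, 0.17 to 1.30) rested on 36 and 28 UMIs. Hk2 was at 298 against 511 CPM (-0.78, -1.20 to -0.38) and 351 against 482 CPM (-0.45, -0.67 to -0.25). In all 4 members were higher and 2 lower in the plasma-negative library, where 13.2% and 4.74% of all genes were, and 5 higher and 1 lower in the plasma-positive library, where 17.2% and 8.14% were. The fifth member higher in the plasma-positive library was Pgam1. The other member lower in the plasma-negative library was Aldoa, at 87.7 against 184 CPM (-1.07, -1.91 to -0.34), which was at 160 against 184 CPM in the plasma-positive library (-0.20, -0.52 to 0.11). Ldha did not pass the rule in either (0.14 and 0.33). These cells had median Malat1 shares of 3.92% and 3.75%, and the part of depth and Malat1 share in this result was not tested.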

How the data were processed

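The deposited matrices gave unnormalized UMI counts for every gene in every called cell. The file headers give Cell Ranger 6.1.2, and the submitters' processing notes give Cell Ranger 3.0.1. The genome build, annotation, use of strand and counting of introns are not given in the sources used here. Cell barcodes were not used here.

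Cells were kept from 500 UMIs and 300 genes upwards if mitochondrially encoded UMIs did not exceed 10% (9860 of 9878 and 10362 of 10390). No doublets were removed and no doublet caller was run, but an alternative left out the deepest cells at 0.8% per 1000 cells. Counts were summed per library or cell group and scaled to counts per 1000000 UMIs (CPM), with exact Poisson intervals for levels, exact conditional binomial intervals for ratios and Clopper-Pearson intervals for shares, all at 95% (Python 3.11.15, scipy 1.17.1, numpy 2.4.6, pandas 2.3.3). For depth-weighted ratios the interval of the unweighted ratio was shifted with its width kept, so it is not exact for the weighted ratio. Scaling factors for alternatives came from edgeR 4.0.16 and DESeq2 1.42.0. The ratio method was tested on simulated counts. No p-value was computed, because there was 1 library per group.

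The members, gene lists and thresholds were chosen with earlier results of these data known. Named were all 10 members, genes of the list at 50 CPM or more in a library or past the rule of size in a comparison, and the 10 genes most correlated with the members' sum. Slc2a1, Slc16a3, Hk1 and Hk3, outside this rule, were named after their values were seen. Promoters shown were those of the 2 members with the highest and the 2 with the lowest depth-weighted Apoe ratio. The Malat1, depth and proliferation comparisons of single members were added after the data were seen. Of the 31053 feature identifiers, 30934 were found in GENCODE M21, and all 10 members in the RefSeq promoter table.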

Additional observations from a re-analysis of the deposited data

How the results depend on the processing

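Of 489 values recomputed under alternatives, 427 stayed within the counting interval or, for counts, within 1.5 times. Of the 440 that are log2 ratios 38 changed sign, 32 of them ratios whose interval had included 0. The other 6 were the summed ratio between the libraries, Pgk1 (plasma-negative, -0.10) and Tpi1 (plasma-positive, -0.07) in thinned cells, plasma-negative Ldha with at most 1 interferon UMI (-0.08), and plasma-positive Hk2 in depth bins (0.00) and in Malat1 bins (0.009). No paired analysis was possible because neither sort had a second library, and no replicate could be left out. Between the libraries, the summed log2 ratio of 0.016 became 0.037 without mitochondrial and ribosomal protein genes in the total, 0.055 with edgeR's TMM factors, 0.057 with DESeq2's size factors and -0.011 in cells thinned to 1000 UMIs, and the count of members past the limit was 0 in each alternative. The plasma-negative Apoe ratio of 0.29 became 0.24 without the deepest cells, 0.23 with a limit of 3 Apoe UMIs, 0.20 in cells with at most 1 interferon-response UMI and 0.23 in Malat1 bins. Its count of 7 became 3 at 1.5-fold, 3 in thinned cells, 4 with at most 1 interferon UMI and 4 in Malat1 bins. The plasma-positive ratio of 0.11 became 0.18 without mitochondrial and ribosomal protein genes in the total, 0.18 with at most 1 interferon UMI and 0.047 in Malat1 bins. Its count of 1 became 4 without those genes in the total, 2 with a limit of 10 Apoe UMIs, 2 with at most 1 interferon UMI, and 0 at 1.5-fold, without the deepest cells, with a limit of 3 Apoe UMIs and in Malat1 bins. With at most 1 interferon UMI the 2 were Aldoa (0.38) and Pkm (0.39), without Pgk1. The count stayed at 1 in thinned cells, but that member was Pkm and not Pgk1. The interferon, Malat1 bin, mitochondrial bin and border-macrophage alternatives were chosen after seeing the data. Over all genes, the higher share of calls between the libraries was 52% and became 70.5% with TMM, 72.1% with size factors and 36.2% with means over cells. In the Apoe comparisons it was 30.6% and 21.5% and became 45.1% and 37.8% without mitochondrial and ribosomal protein genes. Where not said otherwise the cause was not tested. Depth limits the rarer members, such as Pgk1 with 100 UMIs in the plasma-negative Apoe-high cells.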

Other observations

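The 15 interferon-response genes had a median of 3 UMIs in Apoe-high and 1 in Apoe-free plasma-positive cells, and of 1 in both classes of plasma-negative cells. The 28 plasma-negative Apoe-high cells with 5 or more of these UMIs had a members' sum of 2664 CPM, against 1950 CPM in the 159 Apoe-high cells with at most 1. In the 28 cells Pgk1 was at 128 against 46.2 CPM, Pkm at 251 against 117 CPM and Gapdh at 826 against 554 CPM. Ldha was at 260 against 93.9 CPM, Aldoa at 342 against 234 CPM, Gpi1 at 123 against 66.2 CPM and Tpi1 at 105 against 80.0 CPM. Eno1 (146 against 171 CPM) and Pgam1 (86.7 against 95.4 CPM) were lower. Hk2 was at 397 against 492 CPM, with overlapping intervals (318 to 490 and 440 to 550 CPM). Those of Gapdh were 710 to 955 and 498 to 614 CPM, and none was computed for the other members. Their values rest on few molecules, since Slc2a5 at 228 CPM in the 28 cells was 50 UMIs. The corresponding 377 and 305 plasma-positive Apoe-high cells had sums of 1900 and 1958 CPM, so the sum was not higher with interferon UMIs there, and this difference between the libraries was not tested. Pgk1 was nevertheless higher in these plasma-positive cells too, at 59.7 against 43.0 CPM, as were Gpi1, Tpi1 and Ldha by less. The other members were lower, among them Eno1 (128 against 161 CPM), Pgam1 (75.8 against 88.3 CPM) and Aldoa (211 against 228 CPM). The median depth of the 28 cells was 6616 UMIs, against 3793 in the 159, and its part in these values was not tested.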
